A study of Mus musculus with 24 samples.

Results

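The keratin gene family was taken as every gene whose array symbol was Krt followed by a number and at most 1 letter, which gave 49 genes of the 20728 named genes measured. They were divided by where each keratin is known to be made into 6 simple, 4 basal, 16 squamous and 21 hair keratins, with 2 that were not placed, Krt42 and Krt222. RNA came from whole lung of C57BL/6 mice aged 9 to 12 weeks, and 1 array was read for each of 24 samples. The groups were bleomycin with gapmer 1 (5 arrays), bleomycin with gapmer 3 (5), bleomycin with control gapmer (5), PBS with gapmer 1 (3), PBS with gapmer 3 (3) and PBS with control gapmer (3). Every sample, controls included, came after transfection with a gapmer, an antisense oligonucleotide through which RNase H cuts a matching RNA. Gapmers 1 and 3 are directed at Dnm3os, a long noncoding RNA. Bleomycin breaks DNA and is the standard agent for experimental lung fibrosis in mice. The sources used here do not give sex, doses, times, the route of either agent or the array batches. Nothing in the labels says that the samples of a group came from separate animals, so a p-value covers only the spread among arrays, which may be technical. The number of arrays limits the precision.

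Keratins are the intermediate filament proteins of epithelial cells, and a filament needs 1 type I and 1 type II partner. Krt8 and Krt18 are the pair of simple epithelia such as the alveolar and airway lining. Krt5 and Krt14 are the pair of basal cells, the stem cells of stratified and pseudostratified epithelium, and Krt15 is a further type I keratin of basal cells. Krt17, Krt6a, Krt6b and Krt16 are known from skin, where they are induced in wounded epithelium. Krt4 and Krt13 pair in the upper layers of mucosal squamous epithelium such as the oesophagus, Krt1 and Krt10 pair in the upper layers of the epidermis, and hair keratins build hair and nail. The genes stand in 2 clusters in the mouse genome: 27 of the 49 lie on chromosome 11 and 22 on chromosome 15. Direct neighbours in the gene order include Krt14, Krt16, Krt17 and Krt42, then Krt6b, Krt6a and Krt5, and Krt4, Krt79, Krt78, Krt8 and Krt18.

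The stretch of 100 bases just upstream of the start was available from RefSeq (build GRCm38.p6) for 34 of the 49 genes. Those of Krt5 and Krt14, of Krt8 and Krt18, and of Krt20 and Krt10 are given because these genes moved in different ways below. Each reads 5′ to 3′ along the gene's own strand and ends at the base before the start. Capitals mark TATAAA, the core of the TATA box.
Krt5, chr15:101712906-101713005, minus strand: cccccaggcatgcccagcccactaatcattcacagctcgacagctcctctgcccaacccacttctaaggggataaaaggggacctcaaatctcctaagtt
Krt14, chr11:100206031-100206130, minus strand: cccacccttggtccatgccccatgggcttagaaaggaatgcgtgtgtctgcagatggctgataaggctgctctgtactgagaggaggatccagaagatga
Krt8, chr15:102004343-102004442, minus strand: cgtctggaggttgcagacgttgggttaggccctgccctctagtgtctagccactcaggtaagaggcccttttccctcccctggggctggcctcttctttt
Krt18, chr15:102028116-102028215, plus strand: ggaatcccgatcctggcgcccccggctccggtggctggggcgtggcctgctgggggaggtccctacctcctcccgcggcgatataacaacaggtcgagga
Krt20, chr11:99438154-99438253, minus strand: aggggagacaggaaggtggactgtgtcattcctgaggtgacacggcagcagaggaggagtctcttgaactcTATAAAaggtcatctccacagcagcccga
Krt10, chr11:99389365-99389464, minus strand: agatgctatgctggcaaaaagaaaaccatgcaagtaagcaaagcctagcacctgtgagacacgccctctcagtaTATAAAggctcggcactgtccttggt

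TATAAA was searched on both strands. It stood in 15 of the 34 keratin windows (44.1%), against 1608 of 27025 windows of all genes (5.95%). By class it stood in 11 of 16 hair, 3 of 10 squamous, 1 of 5 simple and 0 of 2 basal windows. In Krt20 its first base lay 29 bases before the start and in Krt10 it lay 26 bases before. TGANTCA, the core motif of AP-1, was searched in the same way and stood in 0 of the 34 keratin windows, against 729 of 27025 (2.7%), so no match overlapped a TATAAA. The letters of Krt5, Krt14, Krt8 and Krt18 held neither motif within these windows.

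Values are log2 intensities as deposited, quantile-normalised, and for a gene with more than 1 array feature the brightest was used. A difference of 1 is a 2-fold change. The targeted RNA, Dnm3os, checked the labels: it lay at 6.18 ± 0.19 with gapmer 1, 6.40 ± 0.22 with gapmer 3 and 6.90 ± 0.17 with control gapmer in bleomycin lungs (SD, n = 5 each), and both falls were called (adjusted p = 0.000186 and 0.00293), with gapmer 3 and control arrays overlapping. In PBS lungs it lay at 5.89 ± 0.15, 6.10 ± 0.14 and 6.34 ± 0.06 (SD, n = 3 each) in the same order, and neither difference was called (adjusted p = 0.0882 and 0.577). As a check of the tissue, Sftpc, the surfactant protein of alveolar type 2 cells, lay at 17.87 or above on every array, and Trp63, the transcription factor that defines basal cells, lay between 11.57 and 12.52.

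The level of squamous epithelium genes was uneven between arrays. Over 12 genes of cornified and mucosal squamous tissue that are not keratins, such as Lor and Krtdap, the mean level per array ran between 10.50 and 10.73 in bleomycin lungs with gapmer 1, 7.59 and 10.44 with gapmer 3 and 10.18 and 10.51 with control gapmer. It ran between 10.59 and 11.19 in PBS lungs with gapmer 1, 7.28 and 11.12 with gapmer 3 and 7.28 and 9.64 with control gapmer. The low ends were 1 array each: bleomycin with gapmer 3 replicate 1, PBS with gapmer 3 replicate 2 and PBS with control gapmer replicate 3. On these 3 arrays Lor, the main protein of the cornified envelope, lay at 7.90, 7.37 and 7.75, against 12.27 to 16.34 on the other 21. RNA of skeletal muscle was also uneven, with the myosin gene Myh2 between 5.87 and 13.97 over the 24 arrays and, in bleomycin lungs with control gapmer, between 5.91 and 6.26. The part of muscle RNA in the keratin results was not tested. Results on keratins that follow the squamous genes are therefore given a second time with the mean of the 12 genes as a covariate and without the 3 arrays, both chosen after the values were seen. Leaving out the 3 arrays does not even out the groups. The other PBS control arrays, at 8.86 and 9.64, were still below every bleomycin control array, and PBS with gapmer 3 replicate 3 lay at 8.88. In bulk lung, fewer cells of a type and less RNA per cell cannot be told apart.

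The level of the family differed by class, and so did its spread between arrays of a group. The mean of the 6 simple keratins lay between 12.11 and 12.70 on every array. The mean of the 4 basal keratins ran between 6.36 and 11.85, that of the 16 squamous keratins between 6.60 and 8.19, and that of the 21 hair keratins between 6.09 and 6.34. The residual SD of a gene within groups had a median of 0.15 for simple, 1.13 for basal, 0.18 for squamous and 0.14 for hair keratins, beside 0.14 for all genes. The largest within the family were 2.28 for Krt13, 1.85 for Krt4, 1.51 for Krt78 and 1.33 for Krt5, and Krt17 had 0.21 although it is also a basal keratin. The group means of 17 keratins, 5 squamous and 12 hair, were under 6.11 in all 6 groups. That level is the 25th percentile of the means of all genes.

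**Figure D1:**
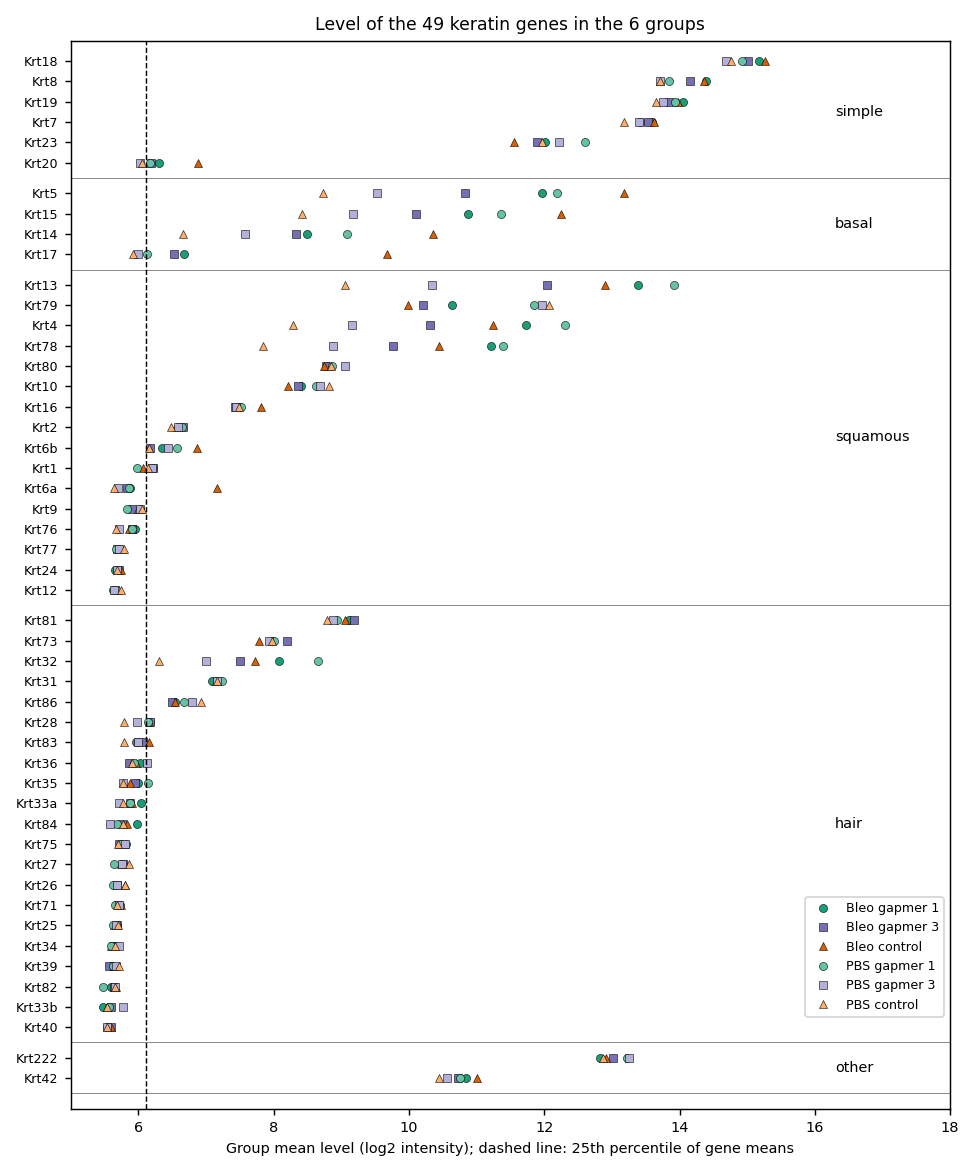
Group means (log2 intensity, horizontal axis) of all 49 keratins in the 6 groups, in rows by class, with the 25th percentile of gene means as a dashed line. Simple keratins other than Krt20 sit to the right with close groups, and basal keratins are drawn apart by group. Krt20 and most hair keratins lie near the dashed line at 6.11.

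Bleomycin against PBS under the control gapmer asked what injury did to the family. The basal keratins Krt5, Krt14, Krt15 and Krt17 all rose, by between 12.9-fold and 21.8-fold, and Krt6a, the wound keratin of skin, rose 2.86-fold. The simple keratins Krt8, Krt18, Krt7 and Krt19 rose between 1.25-fold and 1.56-fold. Krt79 fell 4.22-fold and Krt10 fell 1.52-fold. In all, 14 keratins rose and 4 fell of 49, where 14.5% of all genes rose and 19.3% fell (33.8% called in either direction). The median change of the 49 keratins was 0.07, beside -0.02 for all genes. By class, 4 of 4 basal, 5 of 6 simple, 3 of 16 squamous and 1 of 21 hair keratins rose, and 0, 1, 2 and 1 fell.

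Krt17 lay at 9.69, 9.97, 9.70, 9.68 and 9.30 in bleomycin lungs with control gapmer, against 5.89, 6.08 and 5.78 in PBS lungs with control gapmer. The groups stood far apart and each was tight. The change was 3.75 (SE 0.14, adjusted p = 1.29e-13 by limma), 13.5-fold, and leaving out any 1 array gave 3.67 to 3.84. All 3 PBS values were below 6.11, so Krt17 was among the dim genes without bleomycin.

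Krt5 lay at 13.34, 13.43, 12.93, 13.35 and 12.82 in bleomycin lungs with control gapmer, against 9.53, 10.01 and 6.66 in PBS lungs with control gapmer. The change was 4.44 (SE 0.90, adjusted p = 0.000486), 21.8-fold. The lowest PBS value belongs to replicate 3, the array lowest in squamous genes, and without it the change was 3.41 (adjusted p = 0.00938). A second Krt5 feature, dimmer by rule, gave 1.65. Krt15 lay at 12.34, 12.59, 12.10, 12.31 and 11.92 in the bleomycin group and at 8.70, 9.83 and 6.73 in the PBS group, a change of 3.83 (SE 0.73, adjusted p = 0.000297). Krt5 and Krt15 thus had the same array order in PBS lungs and no overlap with bleomycin lungs.

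Krt14, the type I partner of Krt5, lay at 11.27, 11.41, 10.64, 11.11 and 7.35 with bleomycin and control gapmer, against 7.31, 6.41 and 6.26 with PBS and control gapmer, a change of 3.69 (SE 0.79, adjusted p = 0.000891). Bleomycin replicate 5 stood near the PBS values, although Krt5 on it was 12.82. Once the squamous gene level entered as a covariate, the changes were 2.09 for Krt5 (adjusted p = 4.66e-07), 1.90 for Krt15 (adjusted p = 2.49e-07) and 2.55 for Krt14 (adjusted p = 0.0188), while Krt17 had 3.84. Without the 3 arrays they were 3.41, 2.99, 3.49 and 3.68. All 4 rises were called under both settings. The covariate itself was higher on every bleomycin control array than on any PBS control array. Here and below, adjusting for it can therefore also take out part of a change with bleomycin.

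Among the squamous keratins of wounded skin, Krt6a lay at 7.37, 7.49, 6.76, 7.37 and 6.80 with bleomycin and control gapmer, against 5.69, 5.67 and 5.58 with PBS and control gapmer. Its change was 1.51 (SE 0.15, adjusted p = 9.92e-08). Krt6b changed by 0.71 (SE 0.15, adjusted p = 0.000681). Both groups of Krt6b were apart, at 6.68 to 7.07 against 6.05 to 6.22. Krt16, a type I partner of the Krt6 keratins, lay at 7.70 to 7.90 against 7.11 to 7.82, so the groups overlapped, and its change of 0.33 had an adjusted p of 0.05 as rounded, just inside the threshold. Without PBS control replicate 1 it was 0.14 (adjusted p = 0.43), and leaving out 5 of the other 7 arrays in turn also ended the call. Krt6a and Krt6b are close copies, as are Krt14, Krt16 and Krt17, and cross-hybridisation between them was not tested.

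Krt13 and Krt4, the mucosal pair, had large differences that were not called. Krt13 lay at 13.40, 12.80, 13.02, 13.21 and 12.10 with bleomycin and control gapmer, against 10.14, 11.25 and 5.80 with PBS and control gapmer (change 3.84, SE 1.53, adjusted p = 0.0586). Krt4 lay at 11.47, 10.84, 11.18, 11.26 and 11.50, against 8.48, 10.48 and 5.89 (change 2.97, SE 1.24, adjusted p = 0.0718). No bleomycin array overlapped a PBS array in either gene, but the 3 PBS arrays were far from each other. With the squamous gene level as a covariate the changes were -0.18 (adjusted p = 0.804) for Krt13 and -0.36 (adjusted p = 0.0472) for Krt4. Without the 3 arrays they were 2.21 (adjusted p = 0.0175) for Krt13 and 1.77 (adjusted p = 0.0539) for Krt4. Krt78, named after its values were seen, went with this pair: its change was 2.60 (adjusted p = 0.0533), -0.11 (adjusted p = 0.628) with the covariate and 1.75 (adjusted p = 0.0386) without the 3 arrays. Krt1, the type II keratin of the upper epidermis, had -0.08 (adjusted p = 0.647) and lay between 5.87 and 6.42 on all 24 arrays.

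Krt79 lay at 9.96, 9.64, 9.81, 9.82 and 10.72 with bleomycin and control gapmer, against 11.97, 12.11 and 12.13 with PBS and control gapmer, and the groups did not overlap. This type II keratin, described in the upper hair follicle of mouse skin, fell by 2.08 (SE 0.31, adjusted p = 2.1e-05). Krt79 was classed as squamous but did not follow the squamous genes, with a Pearson's r of -0.246 with Krt13. On the 3 arrays low in squamous genes it lay at 9.58, 12.11 and 12.13. Which cells of the lung it came from was not tested. The change of Krt79 was -2.27 with the squamous gene covariate and -2.05 without the 3 arrays. Krt10 lay at 8.09, 8.24, 8.33, 8.17 and 8.26 with bleomycin, against 8.84, 8.70 and 8.92 with PBS, and changed by -0.60 (SE 0.08, adjusted p = 4.21e-06). A second, dimmer feature of Krt10 went the other way, at 1.19, so the direction for Krt10 rests on which feature is read. With the mean of its features the change was 0.29.

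The simple keratins moved less, on arrays that agreed closely. Krt8 lay at 14.29, 14.39, 14.33, 14.34 and 14.42 with bleomycin and control gapmer, against 13.68, 13.80 and 13.66 with PBS and control gapmer, a change of 0.64 (SE 0.08, adjusted p = 2.13e-06). Krt18 lay at 15.18, 15.25, 15.23, 15.29 and 15.34 against 14.79, 14.73 and 14.75, a change of 0.50 (SE 0.07, adjusted p = 5.43e-06). The groups were apart in both partners. Krt20, a type I keratin of gut and urothelium, lay at 6.70, 7.02, 6.99, 6.91 and 6.78 against 6.11, 5.88 and 6.16, a change of 0.83 (SE 0.11, adjusted p = 5.79e-06). These PBS values of Krt20 lay at or near the limit of dim genes.

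Krt7, a type II keratin of ducts and airways, lay at 13.64, 13.56, 13.55, 13.73 and 13.68 with bleomycin, against 13.38, 13.40 and 12.76 with PBS. Its change of 0.45 (SE 0.12, adjusted p = 0.00437) rested in part on the third PBS array, without which it was 0.25 and not called (adjusted p = 0.075). Krt19, a small type I keratin of the same epithelia, changed by 0.33 (SE 0.11, adjusted p = 0.0209), and by 0.22 (adjusted p = 0.182) without the same array. Krt23, a type I keratin grouped here with the simple ones, changed by -0.42 (SE 0.15, adjusted p = 0.0411), and its groups overlapped. That call was lost when any of 7 of the 8 arrays was left out, with an adjusted p of up to 0.103. Of the remaining calls, Krt42, a type I keratin, changed by 0.55 (adjusted p = 0.00152), Krt28, a keratin of the inner root sheath of hair, by 0.37 (adjusted p = 0.0118), and Krt86, a hair cortex keratin, by -0.39 (adjusted p = 0.0248) with overlapping groups. Without PBS control replicate 3 Krt86 had -0.18 (adjusted p = 0.312).

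**Figure D2:**
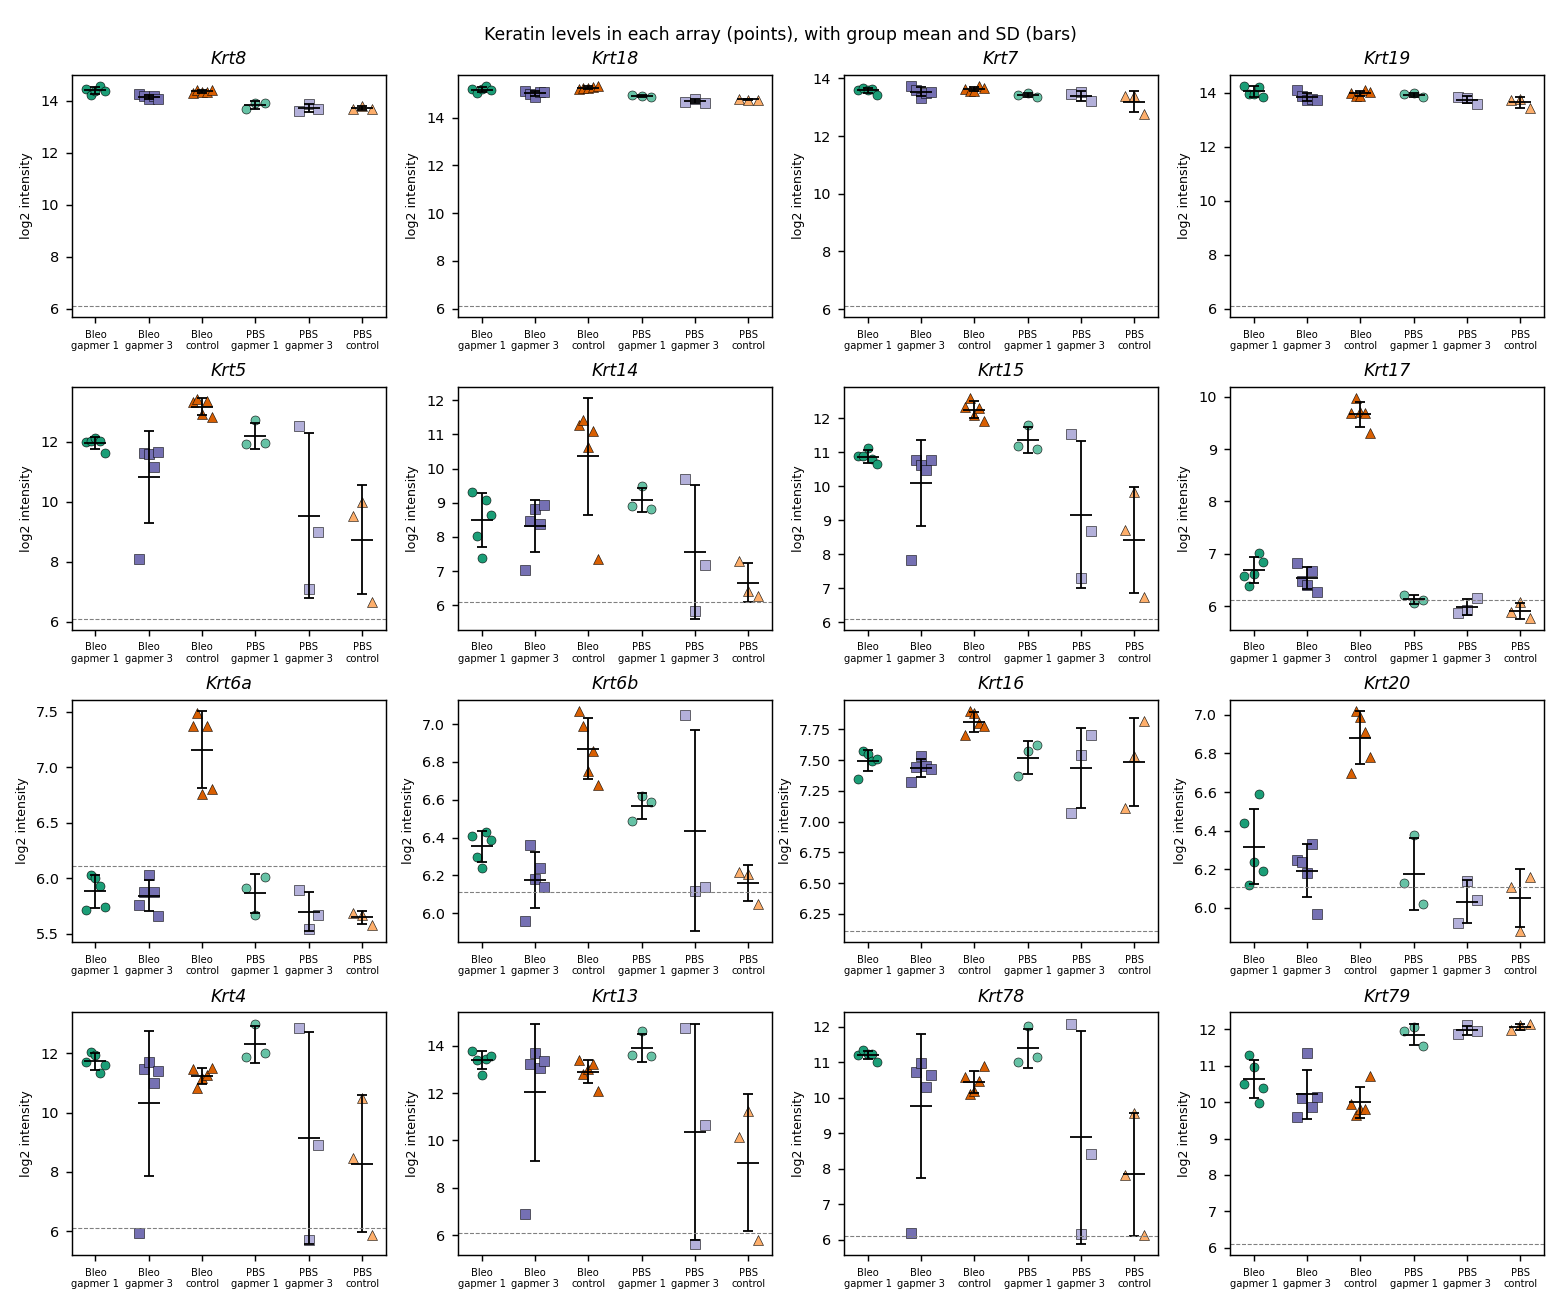
Log2 intensity of 16 keratins on each of the 24 arrays, 1 panel a gene, with 6 groups along the horizontal axis, a point per array and the group mean with its SD. Krt17 and Krt6a stand apart in bleomycin lungs with control gapmer, Krt8 and Krt18 have higher means in the 3 bleomycin groups, and Krt13 and Krt4 have single low arrays in 3 groups.

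Each Dnm3os gapmer was set against the control gapmer in bleomycin lungs to ask what knockdown of Dnm3os did to these levels during injury. With both gapmers Krt17 fell, by 7.9-fold and 8.77-fold, and Krt6a fell 2.42-fold and 2.49-fold, while Krt6b and Krt20 fell by smaller amounts. With gapmer 3 Krt5, Krt15, Krt16, Krt8 and Krt18 also fell. With gapmer 1, 4 keratins fell and 1 rose, where 5.08% of all genes fell and 5.47% rose (10.5% in either direction). With gapmer 3, 9 fell and 0 rose, where 7.52% of all genes fell and 5.63% rose (13.2% in either direction). The median change of the 49 keratins was 0.01 and -0.07, beside 0.02 and 0.01 for all genes. The gapmer comparisons share their 5 control arrays.

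Krt17 lay at 6.57, 6.39, 6.61, 7.02 and 6.84 in bleomycin lungs with gapmer 1 and at 6.82, 6.49, 6.41, 6.68 and 6.28 with gapmer 3, against the values of 9.30 to 9.97 with control gapmer. The changes were -2.98 (SE 0.12, adjusted p = 4.98e-13) and -3.13 (SE 0.12, adjusted p = 2.71e-13). No gapmer array came within 2 log2 units of a control array. Krt6a lay at 5.71, 6.03, 6.00, 5.93 and 5.74 with gapmer 1 and at 5.76, 5.88, 6.03, 5.88 and 5.66 with gapmer 3, against 6.76 to 7.49 with control gapmer. Its changes were -1.28 (SE 0.13, adjusted p = 1.22e-06) and -1.32 (SE 0.13, adjusted p = 6.07e-07), and the gapmer values lay in the range of dim genes.

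Krt5 lay at 11.99, 12.04, 12.14, 12.01 and 11.61 in bleomycin lungs with gapmer 1 and at 8.11, 11.63, 11.58, 11.16 and 11.66 with gapmer 3, against 12.82 to 13.43 with control gapmer. All 10 gapmer arrays lay below all 5 control arrays. The change with gapmer 1 was -1.22 (SE 0.78, adjusted p = 0.381), not called, and with gapmer 3 it was -2.35 (SE 0.78, adjusted p = 0.0489), which was called. The SE rests on a spread pooled over all 6 groups. In bleomycin lungs the SD of Krt5 was 0.20 with gapmer 1, 1.53 with gapmer 3 and 0.28 with control gapmer. In PBS lungs it was 0.44, 2.75 and 1.81 in the same order. The missing call with gapmer 1, for Krt5 and for Krt15 below, therefore also reflects spread in groups outside that comparison. The dimmer Krt5 feature had -0.89 with gapmer 1 and -1.27 with gapmer 3. The call with gapmer 3 was lost whichever single array was left out, with adjusted p between 0.0507 and 0.138. Without gapmer 3 replicate 1, the array lowest in squamous genes, the change was -1.67.

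Krt15 had the same pattern, with -1.38 (adjusted p = 0.19) for gapmer 1 and -2.16 (SE 0.64, adjusted p = 0.0269) for gapmer 3, and -1.59 (adjusted p = 0.0779) for gapmer 3 without that array. That call was also lost without control replicate 1, 2 or 4. With the squamous gene level as a covariate the values for gapmers 1 and 3 were close: -1.60 (adjusted p = 1.51e-06) and -1.59 (adjusted p = 1.45e-06) for Krt5, and -1.70 (adjusted p = 6.66e-08) and -1.54 (adjusted p = 3.09e-07) for Krt15. Without the 3 arrays Krt5 had -1.22 (adjusted p = 0.062) and -1.67 (adjusted p = 0.0148). Krt14 had -1.86 (SE 0.69, adjusted p = 0.088) with gapmer 1 and -2.02 (adjusted p = 0.0549) with gapmer 3. Neither was called. Control replicate 5 stood apart at 7.35, and without it the changes were -2.62 (adjusted p = 0.00302) and -2.78 (adjusted p = 0.00166), both called. With the covariate they were -2.05 (adjusted p = 0.0296) and -1.66 (adjusted p = 0.075).

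Krt6b changed by -0.51 (adjusted p = 0.012) with gapmer 1 and -0.69 (adjusted p = 0.000949) with gapmer 3. Krt20 changed by -0.57 (adjusted p = 0.000715) and -0.69 (adjusted p = 6.47e-05). Krt16 had -0.31 (adjusted p = 0.0685), not called, with gapmer 1 and -0.38 (adjusted p = 0.0232) with gapmer 3, a call lost without gapmer 3 replicate 1 or control replicate 2 or 3 (adjusted p up to 0.0641). These 3 genes had been higher in bleomycin lungs with control gapmer than in PBS lungs.

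The simple pair differed little. Krt8 lay at 14.43, 14.23, 14.36, 14.58 and 14.38 with bleomycin and gapmer 1 and at 14.26, 14.16, 14.08, 14.16 and 14.07 with bleomycin and gapmer 3, against 14.29 to 14.42 with control gapmer. The change was 0.04, not called, with gapmer 1 and -0.21 (adjusted p = 0.047) with gapmer 3, a call lost when any array other than gapmer 3 replicate 1 was left out (adjusted p up to 0.114). Krt18 had -0.08, not called, and -0.25 (adjusted p = 0.00668). Krt23 lay at 12.26, 12.21, 12.26, 11.73 and 11.62 with gapmer 1, against 11.57, 11.30, 11.48, 11.45 and 11.95 with control gapmer, and rose by 0.46 (adjusted p = 0.0279) with overlapping groups. This call was lost without any of 7 of the 10 arrays (adjusted p up to 0.0988). With gapmer 3 it had 0.34 (adjusted p = 0.0956). Krt79 had 0.64 (adjusted p = 0.148) and 0.22, so no rise was called for the keratin that fell most with bleomycin.

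Gapmer 3 and gapmer 1 were also compared with each other in bleomycin lungs. limma called 0 of 49 keratins, where 0% of all genes were called.

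The other 28 keratins, mostly of hair, moved little. Apart from Krt78 and Krt32, the remaining 26 had changes between -0.19 and 0.37 with bleomycin under the control gapmer, between -0.19 and 0.19 with gapmer 1 in bleomycin lungs and between -0.12 and 0.42 with gapmer 3 there. A few of them were bright, and are named here after their values were seen. Krt222 had group means between 12.82 and 13.26, and the hair keratin Krt81 between 8.79 and 9.19. The squamous keratin Krt80 had group means between 8.74 and 9.05.

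**Figure D3:**
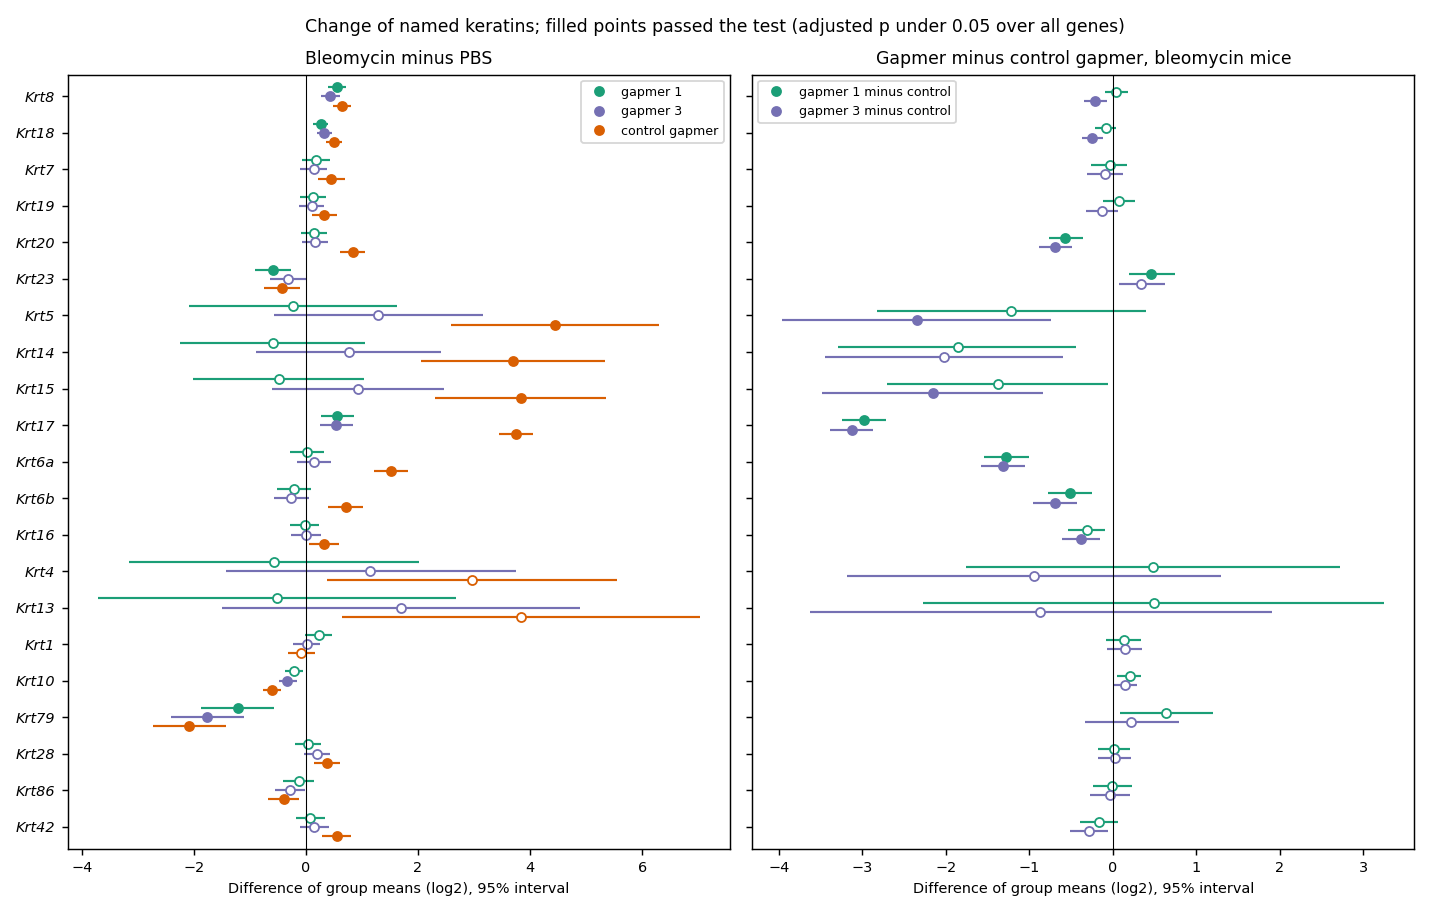
Log2 changes of keratins with 95% intervals (points, filled where called): bleomycin minus PBS under gapmer 1, gapmer 3 and the control gapmer on the left, and each gapmer minus control gapmer in bleomycin lungs on the right. Krt17 is at 0.56, 0.54 and 3.75 on the left and at -2.98 and -3.13 on the right, and the intervals of Krt5, Krt14 and Krt15 are wide.

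Bleomycin was set against PBS within each gapmer as well. Under gapmer 1, 3 keratins rose and 2 fell (6.35% and 3.13% of all genes, 9.48% in either direction). Under gapmer 3, 3 rose and 2 fell (7.02% and 6.85% of all genes, 13.9% in either direction). Krt8 rose by 0.56 (adjusted p = 0.000117) and 0.43 (adjusted p = 0.00072), and Krt18 by 0.26 (adjusted p = 0.0177) and 0.33 (adjusted p = 0.00155). Krt17 rose by 0.56 (adjusted p = 0.0158) and 0.54 (adjusted p = 0.0123). Krt79 changed by -1.22 (adjusted p = 0.0153) and -1.76 (adjusted p = 0.000508). The remaining call was Krt23 under gapmer 1, at -0.59 (adjusted p = 0.0176), and Krt10 under gapmer 3, at -0.33 (adjusted p = 0.00698). The dimmer Krt10 feature went the other way under gapmer 3, at 0.59. With gapmer 1 the calls of Krt17, Krt18, Krt79 and Krt23 were each lost without PBS gapmer 1 replicate 2, with adjusted p up to 0.0994, and Krt17 with gapmer 3 was lost without PBS gapmer 3 replicate 1 or 2 (adjusted p up to 0.0614). Krt8 and Krt18 thus rose with bleomycin under every gapmer, by 0.64 and 0.50 under the control.

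Whether the bleomycin response differed from that under the control gapmer was tested as an interaction. For gapmer 1 the difference was negative in 7 keratins and positive in 1 (2.74% and 4.97% of all genes, 7.7% in either direction), and for gapmer 3 it was negative in 4 and positive in 0 (1.64% and 1.45%, 3.09% in either direction). Krt17 differed by -3.19 (SE 0.20, adjusted p = 2.58e-09) with gapmer 1 and -3.21 (adjusted p = 3.42e-09) with gapmer 3. Krt6a differed by -1.49 (adjusted p = 0.0003) and -1.37 (adjusted p = 0.000979), Krt6b by -0.92 (adjusted p = 0.0126) and -0.97 (adjusted p = 0.0155), and Krt20 by -0.69 (adjusted p = 0.0131) and -0.67 (adjusted p = 0.0251). These 4 genes were called for both gapmers, Krt20 with gapmer 3 least firmly (adjusted p up to 0.0649 with 1 array left out). The positive difference with gapmer 1 was that of Krt10, at 0.39 (adjusted p = 0.0367, and up to 0.106 with 1 array left out), where the change with bleomycin was -0.21 under gapmer 1 and -0.60 under the control gapmer. The dimmer Krt10 feature had -0.31 under gapmer 1 and 1.19 under the control gapmer. The sign of this difference therefore rests on which feature is read.

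Krt5 differed by -4.68 (SE 1.27, adjusted p = 0.028) with gapmer 1 and by -3.15 (adjusted p = 0.177) with gapmer 3. Krt15 differed by -4.32 (adjusted p = 0.0166) and -2.90 (adjusted p = 0.126), and Krt14 by -4.28 (adjusted p = 0.0244) and -2.94 (adjusted p = 0.152). The calls with gapmer 1 rest on the PBS arrays. Without PBS control replicate 3 the values were -3.64 (adjusted p = 0.0983) for Krt5, -3.47 (adjusted p = 0.0586) for Krt15 and -4.08 (adjusted p = 0.0627) for Krt14. The call of Krt5 was also lost without PBS gapmer 1 replicate 1 or 2, and that of Krt14 without replicate 2. With the squamous gene covariate Krt5 differed by -2.07 (adjusted p = 0.000354) with gapmer 1 and -1.72 (adjusted p = 0.00146) with gapmer 3, and Krt14 by -3.02 (adjusted p = 0.109) and -2.24 (adjusted p = 0.242).

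In PBS lungs each Dnm3os gapmer was set against the control gapmer without injury. A knockdown was not shown there: Dnm3os was not called lower with either gapmer. Its means with gapmers 1 and 3, 5.89 and 6.10, were under 6.11, in the range of dim genes. limma called 0 of 49 keratins with gapmer 1, where 0.444% of all genes rose and 0.666% fell (1.11% in either direction). It called 3 without PBS control replicate 2, and 0 with the replicate number as a block. The block called 423 of all genes, against 230 without it. Without the block limma called 0 keratins with gapmer 3, where 0.00965% of all genes rose and 0.0241% fell (0.0338% in either direction). Krt5 lay at 11.92, 12.71 and 11.95 with gapmer 1 and at 12.52, 7.11 and 8.98 with gapmer 3, against 9.53, 10.01 and 6.66 with control gapmer. The gapmer 1 arrays lay above all control arrays, and the difference of 3.46 had an adjusted p of 0.0791, or 4.10 and 0.0462 without PBS control replicate 2. Krt13 lay at 13.60, 14.60 and 13.55 with gapmer 1 and at 14.74, 5.64 and 10.64 with gapmer 3, against 10.14, 11.25 and 5.80 with control gapmer. Within the gapmer 3 group Krt13 thus held both the highest and the lowest value of all 24 arrays.

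**Figure D4:**
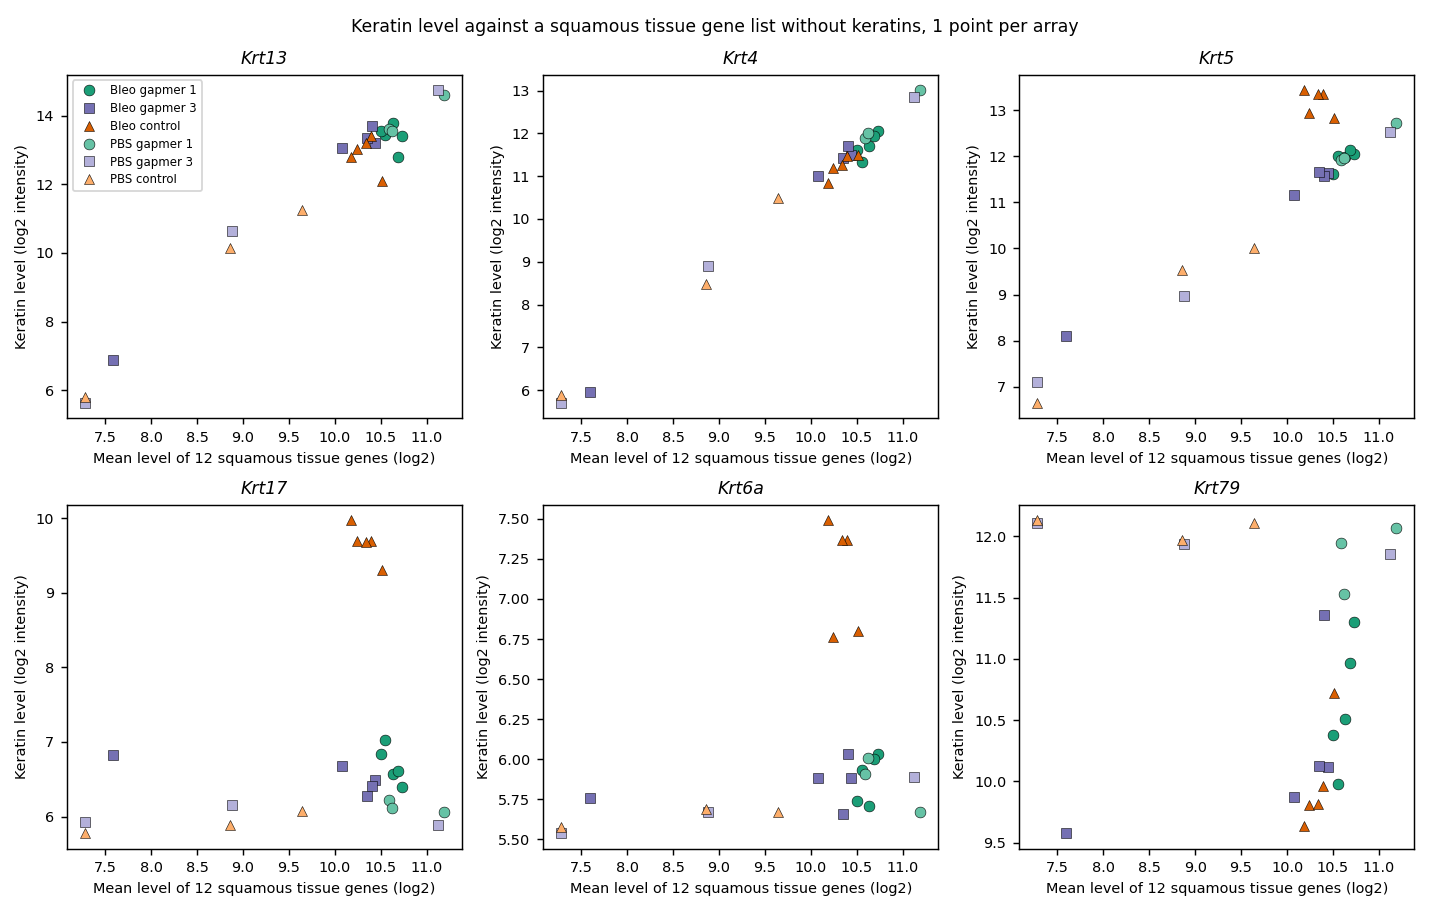
Log2 intensity of Krt13, Krt4, Krt5, Krt17, Krt6a and Krt79 (vertical axes) against the mean log2 intensity of 12 squamous tissue genes (horizontal axis), 1 point for each of the 24 arrays, marked by group. Krt13 and Krt4 lie along a line with arrays of every group, Krt5 lies along one with the bleomycin control arrays above it, and Krt17 and Krt6a are high in those 5 arrays only.

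Over the 24 arrays Krt4 and Krt78 among the squamous keratins, and some basal keratins, had levels much like those of Krt13. Pearson's r with Krt13 was 0.981 for Krt4, 0.971 for Krt78, 0.906 for Krt5, 0.881 for Krt15 and 0.694 for Krt14. It was low for others, with 0.294 for Krt6a, 0.215 for Krt17, -0.072 for Krt16, -0.201 for Krt1, -0.246 for Krt79 and -0.376 for Krt10. The value for Krt10 is that of its brightest feature. No r is given for its dimmer feature, which changed by 1.19 with bleomycin under the control gapmer where the brightest had -0.60. Among all other genes the 4 most like Krt13 were Asprv1 (0.99), Lce3a (0.989), Lce3b (0.987) and Crct1 (0.987), none of which was chosen before its values were seen. These r values describe 24 arrays that share 6 groups and the same uneven squamous content. Krt32, a hair keratin, had 0.897 and ran between 5.69 and 9.26, and was also named after its values were seen. Its change with bleomycin under the control gapmer was 1.42 (adjusted p = 0.0517).

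Genes that work with keratins were read beside them. Of 13 genes of desmosomes, the junctions on which keratin filaments anchor, 5 rose and 1 fell with bleomycin under the control gapmer (14.5% and 19.3% of all genes). The plakophilin Pkp1 rose by 2.78 (SE 0.99, adjusted p = 0.0343) and the desmocollin Dsc2 by 1.42 (SE 0.36, adjusted p = 0.00381). In PBS lungs with gapmer 1 Pkp1 was also higher, by 3.43 (adjusted p = 0.11), and Dsc2 by 1.56 (adjusted p = 0.0583). Neither was called, though the groups did not overlap. The part of the uneven squamous content in these rises was not tested. With either gapmer in bleomycin lungs 1 of the 13, the plakophilin Pkp2, rose and 0 fell (5.47% and 5.08% of all genes with gapmer 1, 5.63% and 7.52% with gapmer 3). Of 8 measured genes of hemidesmosomes, which tie the keratins of basal cells to the basement membrane, 3 rose and 1 fell with bleomycin, and in bleomycin lungs 1 rose and 2 fell with gapmer 1 and 2 rose and 2 fell with gapmer 3, beside the same shares of all genes. The collagen Col17a1 changed by 0.73 (adjusted p = 0.0132) and the integrin Itgb4 by 0.60 (adjusted p = 1.49e-05). In bleomycin lungs Col17a1 changed by -0.71 (adjusted p = 0.0188) with gapmer 1 and -1.16 (adjusted p = 0.000351) with gapmer 3, and Itgb4 by -0.36 (adjusted p = 0.0037) and -0.55 (adjusted p = 5.46e-05). The list did not move one way: the laminin chain Lama3 rose with both gapmers, by 0.51 (adjusted p = 0.00616) and 0.53 (adjusted p = 0.0035), and the tetraspanin Cd151 rose with gapmer 3 by 0.22 (adjusted p = 0.0352). Lamb3, which rose by 0.35 with bleomycin (adjusted p = 0.00236), had 0.08 (adjusted p = 0.606) and 0.11 (adjusted p = 0.357) with the gapmers.

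Of 9 basal cell genes other than keratins, 4 rose and 1 fell with bleomycin under the control gapmer (14.5% and 19.3% of all genes). With gapmer 1 in bleomycin lungs 0 rose and 1 fell (5.47% and 5.08%), and with gapmer 3 0 rose and 2 fell (5.63% and 7.52%). On the 3 arrays low in squamous genes the mean of the 9 genes was 10.03, 9.85 and 9.67. It ran between 10.02 and 10.92 on the remaining arrays. The part of the uneven squamous content in the changes of these genes was not tested. The nerve growth factor receptor Ngfr lay at 9.18, 8.78, 8.39, 8.71 and 8.43 with bleomycin and control gapmer, against 7.22 to 7.52 with PBS and control gapmer, and changed by 1.38 (adjusted p = 1.31e-06). It changed by -0.89 (adjusted p = 0.000383) with gapmer 1 and -1.08 (adjusted p = 3.34e-05) with gapmer 3 in bleomycin lungs. Sfn, which encodes the 14-3-3 protein stratifin, changed by 1.63 (adjusted p = 9.01e-07) with bleomycin, and by -0.49 (adjusted p = 0.057) and -0.85 (adjusted p = 0.00122) with the gapmers. The aquaporin Aqp3 changed by 1.54 (adjusted p = 0.00701) with bleomycin, and had 0.02 (adjusted p = 0.982) and -0.49 (adjusted p = 0.454) with the gapmers. In PBS lungs with gapmer 1 Aqp3 rose by 1.96 (adjusted p = 0.0459) and Sfn by 0.85 (adjusted p = 0.0498). Trp63 had 0.12 (adjusted p = 0.568) with bleomycin, and -0.17 (adjusted p = 0.48) and 0.07 (adjusted p = 0.792) with the gapmers. Trp63 was therefore not called in these 3 comparisons.

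Of the 12 squamous tissue genes, 6 rose and 0 fell with bleomycin under the control gapmer (14.5% and 19.3% of all genes). Sprr3 rose by 2.96 (SE 1.12, adjusted p = 0.0456), Lypd3 by 2.84 (SE 1.06, adjusted p = 0.0428) and the transglutaminase Tgm1 by 1.97 (SE 0.27, adjusted p = 6.24e-06). In PBS lungs with gapmer 1 they were also higher, by 4.01 (adjusted p = 0.0998), 3.61 (adjusted p = 0.117) and 1.41 (adjusted p = 0.0304), with no overlap. Of these only Tgm1 was called there. With gapmer 1 in bleomycin lungs 0 were called (5.47% of all genes rose and 5.08% fell), and with gapmer 3 Ly6d alone of the 12, which fell by 0.72 (5.63% and 7.52%). Of 12 intermediate filament genes outside the keratins 5 rose and 1 fell with bleomycin, beside the same shares. Synm, a filament protein of muscle, fell by 1.37, and the nuclear lamin Lmnb1 rose by 1.07, the neurofilament Nefh by 0.66 and the nuclear lamin Lmna by 0.62. With each gapmer Lmnb1 alone of the 12 was called lower. Of 7 alveolar epithelial genes 0 rose and 5 fell with bleomycin (14.5% and 19.3% of all genes). In bleomycin lungs 5 rose and 0 fell with gapmer 1 (5.47% and 5.08%), and 4 rose and 0 fell with gapmer 3 (5.63% and 7.52%). With bleomycin most of the alveolar genes fell while 5 of 6 simple keratins rose.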

How the data were processed

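Total RNA of whole lung was labelled with Cy3 and read on one-colour Agilent arrays, per the labels. The deposited values are log2 intensities. The values show quantile normalisation between arrays: at every rank of the sorted values the SD between arrays was at most 0.0158. The array medians lay between 6.4848 and 6.4952. The submitters' processing notes name limma, and the sources used here give no version, background correction or filter. RNA integrity numbers in the labels ran between 8.5 and 10.0.

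The arrays held 62976 features, 31465 of them with 1 gene symbol and 31511 without. A GRCm38.p6 annotation table supplied current names: among 20774 array symbols 18550 needed no update, 1957 were matched through an accession and 263 through a synonym, and 4 stayed as given. The brightest feature stood for each of the 6176 genes with more than 1, giving 20728 genes with no filter on level. The keratins had 61 features for 49 genes. A further 3 features whose array symbols had other forms now carry keratin names and were not members.

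One limma 3.58.1 fit (R 4.3.3, lmFit and eBayes, two-sided) held 24 arrays and 6 group means, with 18 residual and 3.26 prior degrees of freedom. A Benjamini-Hochberg adjusted p under 0.05 over the 20728 genes was called. All changes are bleomycin minus PBS or Dnm3os gapmer minus control gapmer. The fit was tested on simulated data. Same-numbered arrays deviated together in PBS gapmer 1 against PBS control, with correlations of 0.103, 0.189 and 0.121, and in no other comparison for every number. Other steps used Python 3.11.15 with NumPy 2.4.6, SciPy 1.17.1, pandas 2.3.3 and, for plots, matplotlib 3.10.9.

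The members, their classes and the lists of desmosome, hemidesmosome, other filament and cell type genes were chosen with earlier results of these data known. Named keratins are Krt7, Krt8, Krt18, Krt19, Krt5, Krt14, Krt15, Krt17, Krt1, Krt4, Krt6a, Krt6b, Krt10, Krt13 and Krt16, and any other keratin called in a contrast. Other genes named by rule are up to 4 called list members per contrast with the largest changes, and Trp63, Sftpc and Myh2. Lor and Krtdap stand as examples of the squamous list, and Asprv1, Lce3a, Lce3b, Crct1 and the values of Lamb3 and Aqp3 outside their calls were added after values were seen. Dnm3os was named as the targeted gene.

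Alternatives changed the scaling (array medians, quantiles again), the genes (dim genes left out, original symbols), the features (their mean, every feature), the variance model (a trend, robust, array weights) and the samples (only the groups compared, each array left out). A replicate block and the RNA integrity number were tried as further terms, and single keratins were also compared with a two-sided exact permutation test. The squamous gene covariate and the removal of 3 arrays were added after seeing the data.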

Additional observations from a re-analysis of the deposited data

Results flagged for a closer look

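A single array stood far from the rest of its group in several keratins. On bleomycin with gapmer 3 replicate 1, Krt5 lay at 8.11, Krt14 at 7.03, Krt15 at 7.83, Krt4 at 5.95 and Krt13 at 6.88 log2 units, each below the other 4 arrays by most of the group's range. On the same array the mean of the basal keratins was 0.02 and that of the squamous keratins -0.63 log2 units relative to the PBS control mean. On bleomycin with control gapmer replicate 5, Krt14 lay at 7.35 beside 10.64 to 11.41 on the other 4. Of 75 groups looked at in this way 8 had such an array, where chance gives about 1 in 20 for independent checks. These checks were not independent: most of the 8 are the same array, read in keratins that move together and in their class means. The count is therefore no measure of chance.

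The bleomycin response differed from that under the control gapmer, by the interaction term of limma, in the following keratins. With gapmer 1 the log2 difference was -4.68 for Krt5, -4.32 for Krt15, -4.28 for Krt14, -3.19 for Krt17, -1.49 for Krt6a, -0.92 for Krt6b, -0.69 for Krt20 and 0.39 for Krt10 (adjusted p = 0.0367 for Krt10). The calls of Krt5, Krt15 and Krt14 were each lost without PBS control replicate 3. The dimmer feature of Krt10 went the other way. With gapmer 3 it was -3.21 for Krt17, -1.37 for Krt6a, -0.97 for Krt6b and -0.67 for Krt20.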

How the results depend on the processing

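Of 54 keratin changes called, 32 were called under every alternative run and 22 were lost under at least 1, among them Krt5 with gapmer 3 in bleomycin lungs and the interaction of Krt10 with gapmer 1. The cause was not tested. For the counts under these settings and with arrays left out, no share of all genes is given here, so they do not set keratins apart from other genes. The count of keratins called with gapmer 1 against control in bleomycin lungs, 5 as reported, was 9 with array weights, 8 with only the groups compared and 8 with the squamous gene covariate. With gapmer 3, 9 as reported, it was 14 with array weights. In PBS lungs with gapmer 1, 0 as reported, it was 4 with array weights, 1 with only the groups compared and 2 with the RNA integrity number as covariate. Bleomycin against PBS under gapmer 1, 5 as reported, gave 2 with only the groups compared and 2 with the RNA integrity number. Under gapmer 3, 5 as reported, it gave 8 with the covariate, and the interaction with gapmer 3, 4 as reported, gave 7 with array weights. Reversed values were Krt4 with bleomycin, -0.36 with the covariate, and Krt10 with the mean of its features, 0.29 with bleomycin under the control gapmer, 0.13 under gapmer 3 and -0.56 for the interaction with gapmer 1.

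With each array left out in turn, bleomycin against PBS under the control gapmer called 14 to 20 keratins (14 without PBS control replicate 3), gapmer 1 against control in bleomycin lungs 4 to 7, gapmer 3 there 5 to 9 (5 without control replicate 2), and gapmer 3 against gapmer 1 0 to 0. In PBS lungs gapmer 1 called 0 to 3 (3 without control replicate 2) and gapmer 3 0 to 0. Bleomycin against PBS called 1 to 6 under gapmer 1 (1 without PBS replicate 2) and 5 to 7 under gapmer 3, and the interactions 4 to 9 (4 without PBS control replicate 3) and 3 to 5.

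Of 33 same-numbered pairs of arrays 13 correlated over 0.1, with a range of -0.413 to 0.42, and only in PBS gapmer 1 against PBS control did every pair do so. With the replicate number as a block, 19 keratins were called with bleomycin under the control gapmer and 6 and 9 with the gapmers in bleomycin lungs. Of all genes the block called 7100, 2545 and 3135 in these comparisons, against 7001, 2186 and 2726 without it. In PBS lungs it called 0 keratins with either gapmer, and it changed no call of a named keratin in PBS gapmer 1 against PBS control. Signal near the array's floor limits the hair keratins and Krt6a, Krt17 and Krt20 in PBS lungs.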

Other observations

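The genes closest to Krt17 and Krt79 over the 24 arrays were named after their values were seen and with no test. Krt17 was most like the neutrophil chemokine Cxcl5 (Pearson's r = 0.978), Spink8 (0.972) and Sprr2d (0.971), a cornified envelope gene. Krt79 was most like Cpne5 (0.979), Fabp1 (0.978), a fatty acid binding protein, and the formyl peptide receptor Fpr2 (0.973). The arrays share 6 groups, so these values describe patterns over the groups.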
